A study of Mus musculus with 9 samples.

Results

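The transcripts of 43 lysosomal genes, of 32035 genes with a value, were followed in testes of mice with a disrupted Kpna6 gene. The 43 genes were a fixed list of acid hydrolases, their protein partners and proteins of the lysosomal membrane, chosen by gene name with no measured value in the rule. Earlier results of these data were known when the list was chosen. They comprise 12 proteases (Ctsa, Ctsb, Ctsc, Ctsd, Ctsf, Ctsh, Ctsk, Ctsl, Ctss, Ctsz, Lgmn and Tpp1), 14 hydrolases of sugar chains (Gaa, Gla, Glb1, Gusb, Hexa, Idua, Ids, Man2b1, Manba, Naglu, Neu1, Sgsh, Arsb and Fuca1) and 9 lipid hydrolases and lipid carriers (Smpd1, Asah1, Galc, Arsa, Ppt1, Lipa, Npc2, Psap and Gm2a). A further 6 encode membrane proteins (Lamp1, Lamp2, Cd63, Scarb2, Npc1 and Mcoln1), and the last 2 are Grn, which encodes progranulin, and Tfeb, which encodes a transcription factor of lysosomal genes. Expression was measured by RNAseq of poly(A) RNA from whole testes. The 9 samples comprised 3 of WT, 3 of Kpna6 -/- and 3 of Kpna6 ΔIBB/ΔIBB genotype, all 15 weeks old by their labels and on the C57Bl6/N background. Kpna6 encodes importin α7, an adaptor that carries proteins into the nucleus together with importin β. Kpna6 ΔIBB/ΔIBB mice lack exon 2, and the shortened mRNA gives a truncated protein without the importin β binding domain. Kpna6 -/- mice carry a gene trap in the first intron and are labelled importin α7 -/-. By the study, the protein is lost in most of their tissues. The study adds that testis transcripts can start at an alternative exon beyond the trap. Germ cells of this line keep full-length protein, and the study found none in its Sertoli cells. This limits the line as a model of loss in germ cells, and the study describes its phenotype as mild and related to Sertoli cells.

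Lysosomes are acidic organelles in which proteins, sugar chains and lipids are broken down. Most of their soluble enzymes are tagged with mannose 6-phosphate in the Golgi and delivered by sorting receptors, whereas membrane proteins such as Lamp1 and Lamp2 protect the boundary of the organelle. TFEB and its relatives bind an E-box-like sequence, known as the CLEAR element, near the start of many lysosomal genes. In the seminiferous tubule, Sertoli cells take up residual bodies and dying germ cells and degrade them in lysosomes, and the acrosome of spermatids is a related organelle that stores hydrolases.

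Because several genes of the list are known targets of this element, the promoters of the genes were searched for the letters GTCACGTG on either strand, in the 300 bases from 250 before to 50 after each RefSeq transcription start (assembly GRCm38.p6). A promoter was matched for 39 of the 43 genes, and none was matched for Asah1, Ctsb, Ctsh and Npc1. The letters were found for 10 of the 39 genes (25.6%), which were Arsa, Ctsa, Ctsd, Gla, Glb1, Lamp1, Lgmn, Mcoln1, Naglu and Sgsh, and for 689 of 27025 genes with a promoter in the table (2.55%). The shorter core CACGTG, which these letters contain, was found for 13 of the 39 genes (33.3%) and for 2187 of 27025 genes (8.09%). The stretches below are shown for 3 of these genes that were higher in Kpna6 ΔIBB/ΔIBB testes and for 3 that were among the more abundant and were not called, and each is written 5′ to 3′ along the gene, with the matched letters (GTCACGTG or its reverse complement CACGTGAC) in capitals.
Lgmn: atggaatgtctGTCACGTGgtccattttat
Sgsh: ggcctgccgtgCACGTGACcgtggggagcg
Ctsd: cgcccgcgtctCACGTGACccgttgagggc
Lamp1: atgccgactggCACGTGACcacatcacgtg
Arsa: ttcaactcagtGTCACGTGttgtctgctc
Naglu: ccaaccttcagGTCACGTGgcccgaggtcg
The stretch of Lgmn, a protease that cuts after asparagine, lies at chr12:102439125-102439154 on the minus strand, with the matched letters beginning 51 bases before the start. That of Sgsh, which removes sulfate from heparan sulfate, lies at chr11:119355521-119355550 on the minus strand, 29 bases before the start. That of Ctsd, an aspartic protease, lies at chr7:142387907-142387936 on the minus strand, 98 bases before the start. The stretch of Lamp1 lies at chr8:13159122-13159151 on the plus strand, 28 bases before the start, and that of Naglu, another enzyme of heparan sulfate breakdown, at chr11:101070008-101070037 on the plus strand, 75 bases before the start. That of Arsa, which removes sulfate from sulfatide, lies at chr15:89477425-89477453 on the minus strand, 18 bases before the start. A match is a description of the sequence, and binding was not measured.

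The targeted gene was examined first. Kpna6 (chr4:129643980-129672767) was at 201, 325 and 334 normalised CPM (read counts brought to a common library size, scaled by TMM over the 9 testes) in WT, at 81.2, 85.3 and 81.8 in Kpna6 ΔIBB/ΔIBB and at 247, 249 and 262 in Kpna6 -/- testes. The 3 Kpna6 ΔIBB/ΔIBB values lay below all others, at 0.290 times WT (log2 fold change -1.79 ± 0.153, SE, n = 3 per group, adjusted p = 1.9e-05, edgeR quasi-likelihood test). The Kpna6 -/- values lay above WT replicate 1 and below WT replicates 2 and 3 (adjusted p = 0.59, same test). The overlap thus came from WT replicate 1, and at the level of the whole gene the RNA does not tell these groups apart. The estimated counts on genes ranged from 24859751 to 31484692 per testis. In epididymal genes 1 library stood apart. The summed level of 8 epididymal genes was 114 CPM in Kpna6 ΔIBB/ΔIBB replicate 3 and between 4.73 and 11.9 CPM in the other 8 testes, with Lcn5 at 0 in all of them.

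All 43 genes were detected in WT testis, across a wide range of levels. In TPM, a level per transcript length that can be compared between genes, 5 genes were above 100, 19 lay between 10 and 100, and 19 below 10. The 5 most abundant genes together held 57.4% of the summed TPM of the list in WT. Lamp1 was highest at 283 ± 1.85 TPM (SD, n = 3), followed by the cysteine protease Ctsl at 196 ± 11.8, by Psap, the precursor of the saposins that present lipids to their hydrolases, at 123 ± 4.91, by Ppt1, which removes fatty acids from proteins, at 117 ± 4.22, and by Arsa at 110 ± 3.15 TPM. Each of these lay above its successor in all 3 WT testes except for Psap and Ppt1, whose ranges overlapped. At the low end were Ids, which removes sulfate from heparan and dermatan sulfate, at 1.96 ± 0.155 TPM, Ctsk at 1.85 ± 0.605 TPM and the α-galactosidase Gla at 1.25 ± 0.624 TPM. From rank 27 (Ctsz, 5.46 TPM) downwards the WT ranges of all neighbours in the order overlapped.

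**Figure D1:**
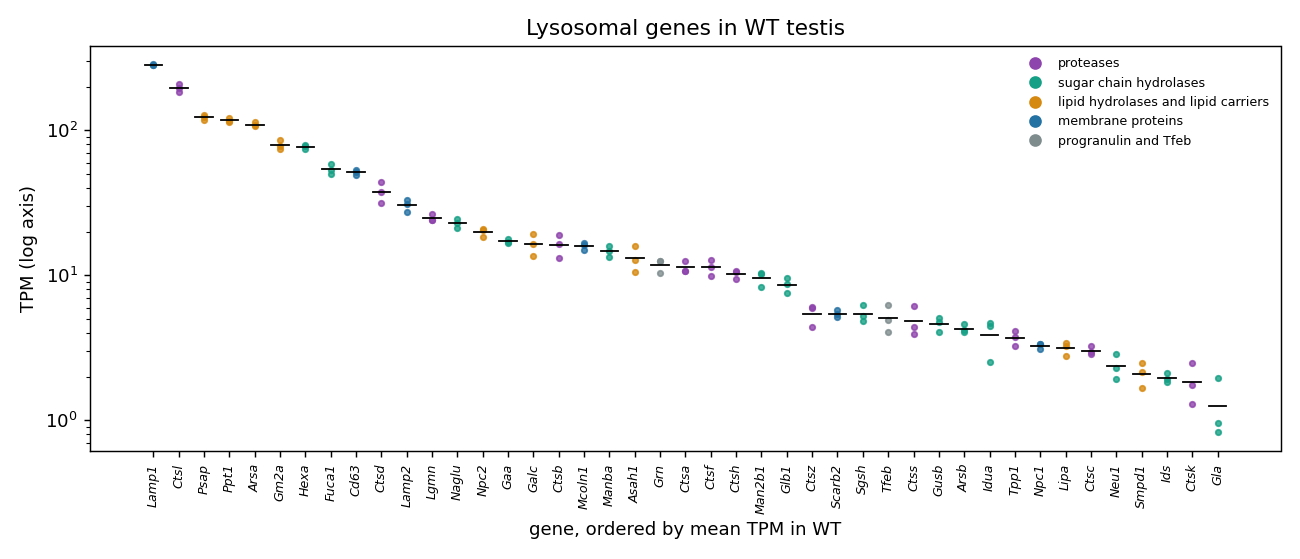
Level of each of the 43 lysosomal genes in the 3 WT testes in TPM, on a log axis, with points for testes, coloured by class, and a line at the mean. Lamp1, Ctsl, Psap, Ppt1 and Arsa lie above 100 TPM, and 19 genes lie below 10 TPM.

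The lysosomal genes were higher in Kpna6 ΔIBB/ΔIBB than in WT testes. Of the 43 genes, 30 rose (adjusted p below 0.05, 69.8%), 1 fell (Galc) and 12 were not called, whereas 17.7% of all 18797 genes tested were called higher and 18.9% were called lower. The 3 mutant values lay above all 3 WT values for 31 genes (72.1%), which was the case for 24.9% of all genes tested. The median log2 fold change of the list was 0.39, and that of all genes 0.0090. The rises were moderate, from 1.11-fold for Hexa to 1.94-fold for Ctsz, and 16 genes exceeded a log2 fold change of 0.5. Summed over the list, the level was 2537 to 2728 CPM in WT and 3097 to 3432 CPM in Kpna6 ΔIBB/ΔIBB testes. Without Kpna6 ΔIBB/ΔIBB replicate 3, 29 genes were called higher and 1 lower.

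**Figure D2:**
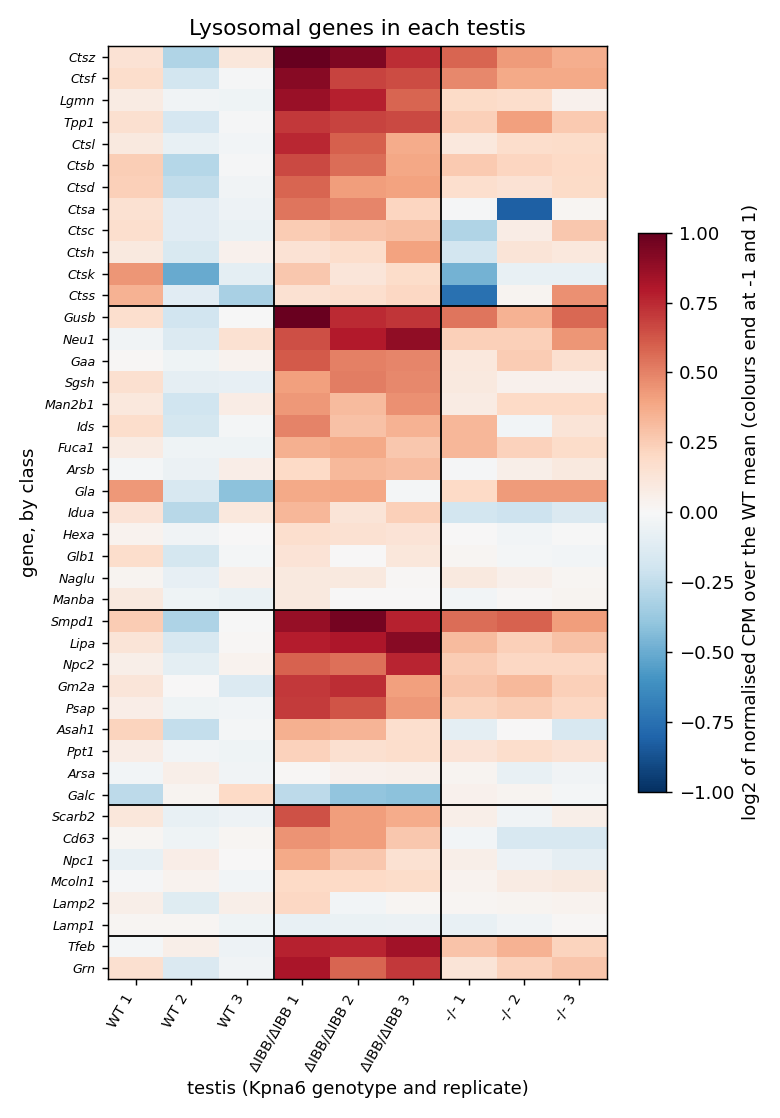
Normalised CPM of each lysosomal gene (rows, by class and by fold change) in each of the 9 testes (columns) as log2 of the ratio to the WT mean. The colours end at -1 and 1. The 3 Kpna6 ΔIBB/ΔIBB columns are raised for most rows, Galc is lowered, and the 3 Kpna6 -/- columns lie mostly between the other groups.

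Among the proteases, 8 of 12 rose and 4 were not called, with a median log2 fold change of 0.51. Ctsz, a carboxypeptidase of the cathepsin family (ENSMUSG00000016256, chr2:174427493-174439039), was at 5.87, 4.31 and 5.75 CPM in WT, at 11.9, 10.1 and 8.87 CPM in Kpna6 ΔIBB/ΔIBB and at 7.93, 7.14 and 6.84 CPM in Kpna6 -/- testes. Every Kpna6 ΔIBB/ΔIBB value was above every value of the other groups, and the log2 fold change against WT was 0.96 ± 0.147 (SE, adjusted p = 0.00054). Ctsf, another cysteine protease (chr19:4855130-4860918), was at 18.2, 14.3 and 16.02 CPM in WT, at 30.4, 25.9 and 25.5 CPM in Kpna6 ΔIBB/ΔIBB and at 22.5, 21.1 and 21.1 CPM in Kpna6 -/- testes. The 3 groups did not overlap, and the log2 fold change of Kpna6 ΔIBB/ΔIBB against WT was 0.76 ± 0.1002 (adjusted p = 0.00022). Ctsl (chr13:64359337-64370890), which Sertoli cells are known to make, was at 297, 264 and 273 CPM in WT, at 469, 421 and 360 CPM in Kpna6 ΔIBB/ΔIBB and at 299, 315 and 316 CPM in Kpna6 -/- testes. It rose 1.501-fold in Kpna6 ΔIBB/ΔIBB (adjusted p = 0.00028), the largest gain in reads among the proteases.

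The other proteases that rose were Lgmn at 1.68-fold, the tripeptidyl peptidase Tpp1 at 1.61-fold, Ctsb at 1.46-fold, Ctsd at 1.39-fold and Ctsa, which also shields Neu1 and Glb1 in a complex, at 1.34-fold. Ctsc, which activates granule proteases of immune cells, had a log2 fold change of 0.29 ± 0.111 (adjusted p = 0.066) and was called without WT replicate 1 (0.37, adjusted p = 0.029), and the aminopeptidase Ctsh one of 0.25 ± 0.111 (adjusted p = 0.10). Ctsk and Ctss, proteases of osteoclasts and of antigen-presenting cells, were at 0.19 ± 0.233 and 0.18 ± 0.164 with WT means of 1.85 and 4.84 TPM, and their standard errors were wide for this class. For Ctsb, 774 exon bases overlap with Fdft1 on the opposite strand, and the libraries do not keep strand. Fdft1 had a mean of 10940 counts against 2132 for Ctsb. With all counts of Fdft1 added, the log2 fold change of the sum was -0.027 (adjusted p = 0.59). Most counts of this sum are those of Fdft1, so it cannot show whether the rise of Ctsb depends on how reads were split. Ctsa shares 495 exon bases with Pltp, also on the opposite strand.

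Of the sugar chain hydrolases, 9 of 14 rose and 5 were not called, with a median of 0.31. Gusb, the β-glucuronidase (chr5:129989011-130003049), was at 9.24, 7.18 and 8.19 CPM in WT, at 16.3, 13.8 and 13.4 CPM in Kpna6 ΔIBB/ΔIBB and at 11.9, 10.5 and 12.2 CPM in Kpna6 -/- testes. The 3 groups did not overlap, and Gusb rose 1.77-fold in Kpna6 ΔIBB/ΔIBB (log2 fold change 0.82 ± 0.116, adjusted p = 0.00032). The sialidase Neu1 rose 1.72-fold, the α-glucosidase Gaa, which degrades glycogen, 1.45-fold, Sgsh 1.39-fold and the α-mannosidase Man2b1 1.33-fold. Ids rose 1.30-fold, the α-fucosidase Fuca1 1.26-fold, Arsb, which acts on dermatan and chondroitin sulfate, 1.22-fold, and Hexa, the α subunit of β-hexosaminidase, 1.11-fold. The 5 genes not called were Gla, Idua, Glb1, Naglu and Manba, with log2 fold changes between 0.04 and 0.26. The calls of some small rises were lost when 1 testis was left out. Hexa was not called without WT replicate 2 (0.13, adjusted p = 0.065), Arsb not without WT replicate 2 or Kpna6 ΔIBB/ΔIBB replicate 2 (0.25 and 0.26), and Ids not without WT replicate 2, WT replicate 3 or Kpna6 ΔIBB/ΔIBB replicate 1 (0.29 to 0.37).

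The lipid hydrolases and lipid carriers had the highest median of the 3 enzyme classes, 0.59, with 7 of 9 genes higher and 1 lower. Smpd1, the acid sphingomyelinase (chr7:105554360-105558389), was at 4.49, 3.03 and 3.75 CPM in WT, at 6.85, 7.30 and 6.39 CPM in Kpna6 ΔIBB/ΔIBB and at 5.54, 5.65 and 5.03 CPM in Kpna6 -/- testes. It rose 1.83-fold in Kpna6 ΔIBB/ΔIBB, and again no values of the 3 groups overlapped (log2 fold change 0.87 ± 0.148, adjusted p = 0.0010). Lipa, the lysosomal acid lipase, which frees cholesterol from its esters (chr19:34492318-34527474), was at 7.79, 6.36 and 7.17 CPM in WT, at 12.3, 12.5 and 13.3 CPM in Kpna6 ΔIBB/ΔIBB and at 8.84, 8.37 and 8.68 CPM in Kpna6 -/- testes. It rose 1.79-fold (log2 fold change 0.84 ± 0.102, adjusted p = 0.00013), and the Kpna6 -/- values lay between the other groups without overlap.

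Psap (chr10:60277627-60302597) was at 257, 238 and 241 CPM in WT, at 398, 380 and 331 CPM in Kpna6 ΔIBB/ΔIBB and at 286, 291 and 283 CPM in Kpna6 -/- testes. Gm2a, the activator that presents ganglioside GM2 to β-hexosaminidase (chr11:55098115-55113029), was at 278, 256 and 233 CPM in WT, at 417, 426 and 339 CPM in Kpna6 ΔIBB/ΔIBB and at 310, 321 and 301 CPM in Kpna6 -/- testes. For both carriers the groups were ordered WT, Kpna6 -/-, Kpna6 ΔIBB/ΔIBB without overlap, and they rose 1.51-fold and 1.55-fold in Kpna6 ΔIBB/ΔIBB (log2 fold changes 0.59 ± 0.0624 and 0.63 ± 0.0839). Npc2, the soluble cholesterol carrier that hands its load to Npc1, rose 1.56-fold (0.64 ± 0.0658). The rises of Ppt1 and of the ceramidase Asah1 were smaller, at 0.19 ± 0.0427 and 0.29 ± 0.104. Ppt1 (chr4:122836242-122859175) was at 209, 195 and 193 CPM in WT, at 234, 222 and 225 CPM in Kpna6 ΔIBB/ΔIBB and at 218, 225 and 220 CPM in Kpna6 -/- testes, so that the mutant lines overlapped with each other and not with WT. Asah1 was called in 2 of 6 fits that left out a testis, and not without WT replicate 2 (0.18), WT replicate 3 (0.28), Kpna6 ΔIBB/ΔIBB replicate 1 (0.26) or replicate 2 (0.27).

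Galc, the galactosylceramidase (chr12:98202294-98259459), was the 1 gene of the list that fell. It was at 40.6, 49.5 and 55.7 CPM in WT, at 40.5, 37.0 and 36.6 CPM in Kpna6 ΔIBB/ΔIBB and at 49.96, 49.6 and 48.1 CPM in Kpna6 -/- testes. The highest Kpna6 ΔIBB/ΔIBB value lay just below the lowest WT value, and the log2 fold change was -0.35 ± 0.0986 (adjusted p = 0.017). Against Kpna6 -/-, where the spread was smaller, it was -0.38 ± 0.0513 (adjusted p = 0.00021). The call against WT was lost without WT replicate 3 (-0.24, adjusted p = 0.058), without Kpna6 ΔIBB/ΔIBB replicate 2 (-0.33, adjusted p = 0.060), with scaling by library size only (-0.25, adjusted p = 0.064) and on log2(TPM + 1) (-0.20, adjusted p = 0.25). Arsa (chr15:89472476-89477425), at 260, 276 and 257 CPM in WT, 266, 272 and 274 CPM in Kpna6 ΔIBB/ΔIBB and 269, 251 and 258 CPM in Kpna6 -/- testes, overlapped between all groups (0.04 ± 0.0390 against WT, adjusted p = 0.48).

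**Figure D3:**
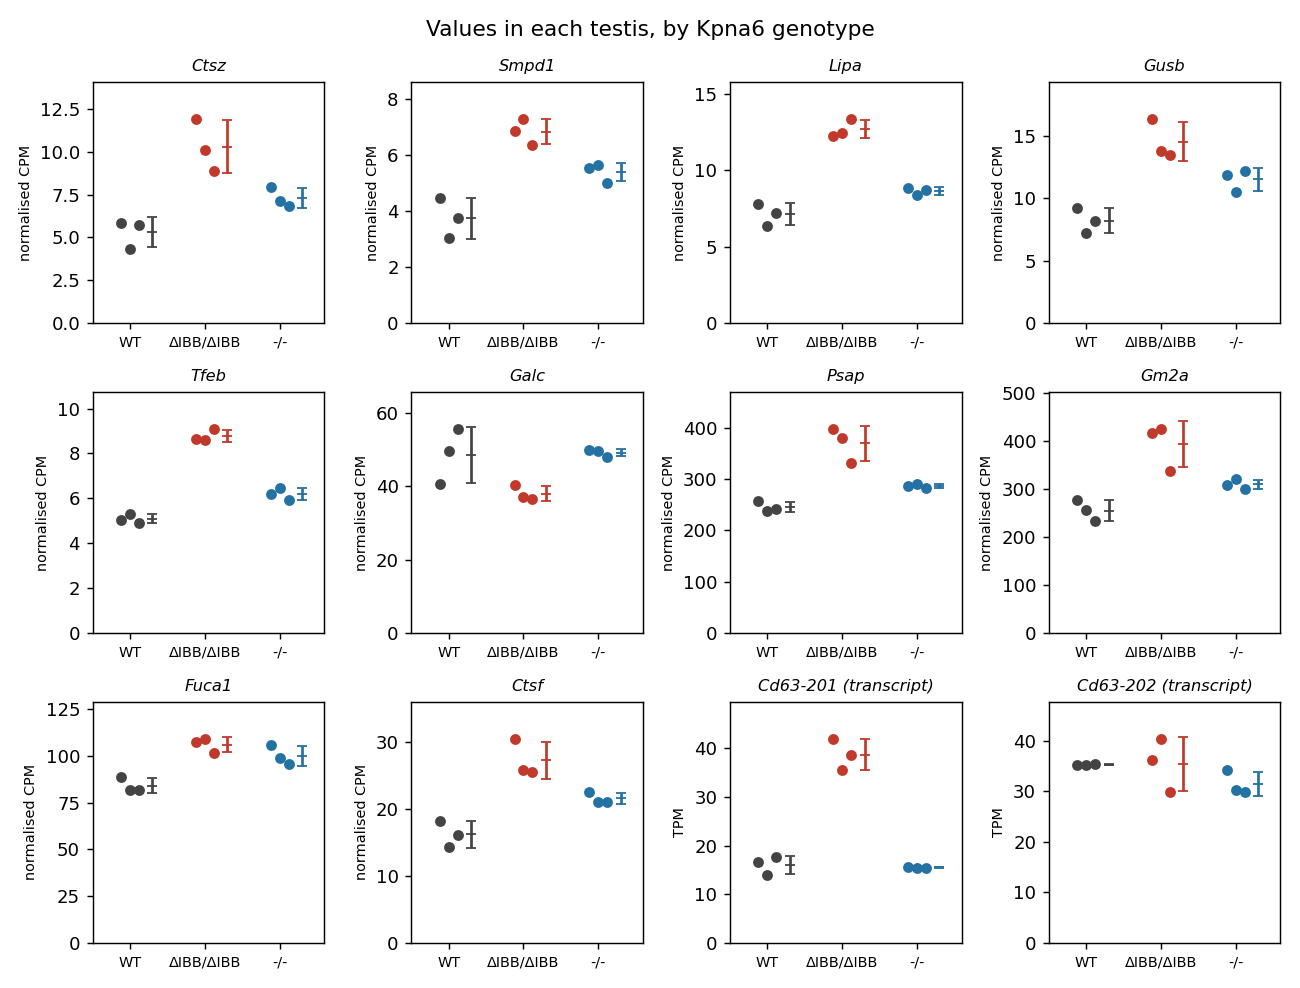
Values in each testis by Kpna6 genotype for 10 genes in normalised CPM and for 2 transcripts of Cd63 in TPM, with points for testes and a bar for mean ± SD (n = 3). Axes start at 0. Ctsz, Smpd1, Lipa, Gusb and Tfeb are the largest rises in Kpna6 ΔIBB/ΔIBB, Galc is the fall, and Cd63-201 is higher in all 3 Kpna6 ΔIBB/ΔIBB testes than in WT, where Cd63-202 overlaps.

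Of the 6 membrane proteins 4 rose and 2 were not called, with a median of 0.24, the lowest of the classes. By DESeq2 and with length-scaled TPM counts 2 of the 6 were called. Lamp1 (chr8:13159161-13175338), the most abundant gene of the list, was at 477, 475 and 456 CPM in WT, at 445, 447 and 450 CPM in Kpna6 ΔIBB/ΔIBB and at 445, 457 and 473 CPM in Kpna6 -/- testes. All 3 Kpna6 ΔIBB/ΔIBB values were slightly below WT in CPM (-0.06 ± 0.0332, adjusted p = 0.16) and slightly above in TPM (295 ± 1.90 against 283 ± 1.85 TPM), so its direction depends on the scale. Lamp2 had a log2 fold change of 0.07 ± 0.0732. Scarb2, an abundant glycoprotein of the lysosomal membrane, rose 1.40-fold, Npc1, which exports cholesterol, 1.21-fold, and Mcoln1, a calcium channel that signals to Tfeb, 1.15-fold. Mcoln1 (adjusted p = 0.038) was called in none of the 6 fits without a testis, with values of 0.18 to 0.21, and Npc1 (adjusted p = 0.028) in 2 of them, but not without WT replicate 1 (0.24), WT replicate 3 (0.27), Kpna6 ΔIBB/ΔIBB replicate 1 (0.21) or replicate 2 (0.27).

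Cd63, a tetraspanin of late endosomes, rose 1.31-fold (log2 fold change 0.39 ± 0.0638, adjusted p = 0.00089), and the gain lay in 1 of 2 transcripts. With the counts of all genes that share near-identical sequence of at least 100 bases added, the value of the sum was -0.090 (adjusted p = 0.023). Of the added genes, Sec14l1 alone had a mean of 9045 counts against 873 for Cd63, so this value describes mostly the added genes. Cd63-201, whose exon 1 spans chr10:128909699-128909958, was at 16.6, 13.9 and 17.6 TPM in WT, at 42.0, 35.6 and 38.6 TPM in Kpna6 ΔIBB/ΔIBB and at 15.7, 15.4 and 15.5 TPM in Kpna6 -/- testes. Cd63-202, whose exon 1 lies upstream at chr10:128908820-128909052, was at 35.1, 35.2 and 35.3 TPM in WT, at 36.1, 40.3 and 29.8 TPM in Kpna6 ΔIBB/ΔIBB and at 34.1, 30.2 and 29.8 TPM in Kpna6 -/- testes. Cd63-201 was higher in each Kpna6 ΔIBB/ΔIBB testis than in any other, and its share of the gene was 52.4% ± 4.96 in these testes, 31.2% ± 2.56 in WT and 33.2% ± 1.45 in Kpna6 -/- (SD, n = 3). Both transcripts hold the same 714 coding bases and differ in their untranslated exon 1. These values are a description with no test, because the error of assigning reads to overlapping transcripts is not known here.

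Tfeb and Grn rose. Tfeb (chr17:47737030-47792419) was at 5.03, 5.30 and 4.91 CPM in WT, at 8.65, 8.62 and 9.09 CPM in Kpna6 ΔIBB/ΔIBB and at 6.19, 6.46 and 5.91 CPM in Kpna6 -/- testes. The groups did not overlap, and Tfeb rose 1.73-fold in Kpna6 ΔIBB/ΔIBB (log2 fold change 0.79 ± 0.0998, adjusted p = 0.00016). With length-scaled TPM counts it was not called (0.52 ± 0.179, adjusted p = 0.060). Its TPM values spread more, at 5.08 ± 1.11, 7.87 ± 1.09 and 5.44 ± 1.33 TPM in WT, Kpna6 ΔIBB/ΔIBB and Kpna6 -/- testes. Progranulin, a secreted protein that is taken up and split into granulins in the lysosome, rose 1.64-fold at the RNA level (0.71 ± 0.0905, adjusted p = 0.00018). Of the 10 genes with the letters GTCACGTG in a promoter, 5 rose (Ctsa, Ctsd, Lgmn, Mcoln1 and Sgsh), with a median of 0.23, and of the 29 genes with a promoter but without these letters 22 rose, with a median of 0.48. Among the 6 stretches shown above, those of Lgmn, Sgsh and Ctsd thus belong to genes at 0.75, 0.48 and 0.47, and those of Lamp1, Arsa and Naglu to genes at -0.06, 0.04 and 0.07.

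**Figure D4:**
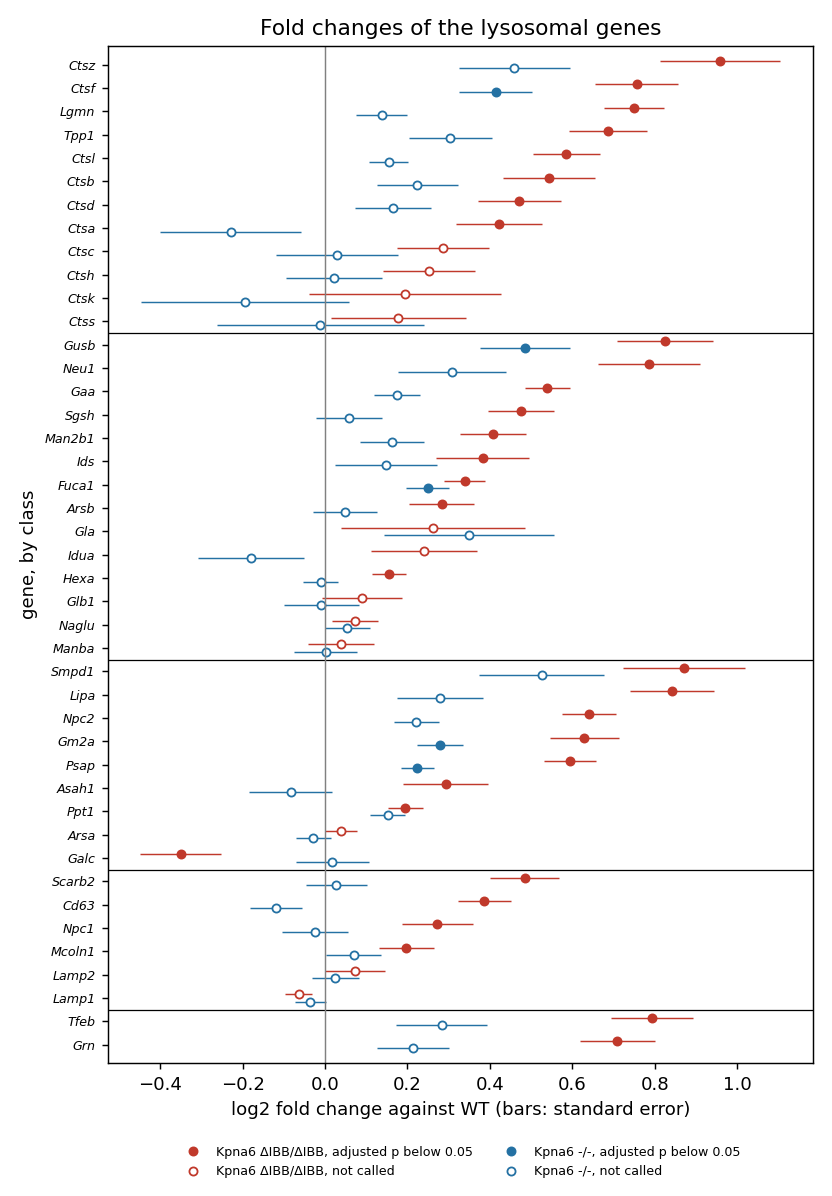
Log2 fold change against WT of each of the 43 lysosomal genes in Kpna6 ΔIBB/ΔIBB (red) and Kpna6 -/- testes (blue), by class, with bars for the standard error and filled points for an adjusted p below 0.05. In red, 30 points are filled to the right of 0 and 1 to the left (Galc), and in blue 5 are filled.

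Kpna6 -/- testes differed from WT in few of these genes. Of 43 genes 5 rose and 0 fell (edgeR), against 0.889% of 18681 genes called higher and 0.712% called lower. At an unadjusted p below 0.05, 18 of the 43 genes were higher and 0 lower, against 7.79% of all genes tested higher and 7.08% lower. The 3 mutant values lay above all WT values for 15 genes (34.9%), which was the case for 10.2% of all genes tested. The median log2 fold change was 0.14 for the list and 0.0021 for all genes. Of the 43 values 32 were above 0, against 50.7% of all genes tested. The genes that rose were Psap at 0.22 ± 0.0403 (adjusted p = 0.017), Gm2a at 0.28 ± 0.0559 (adjusted p = 0.030), Fuca1 at 0.25 ± 0.0526 (adjusted p = 0.037), Ctsf at 0.41 ± 0.0883 (adjusted p = 0.038) and Gusb at 0.49 ± 0.109 (adjusted p = 0.047). Smpd1 had the highest value, 0.53 ± 0.151, and was not called (adjusted p = 0.11). None of the 6 membrane proteins was called, and their median was 0.00057.

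The 5 calls were lost in most fits that left out 1 testis. Such a fit has fewer samples and so less power. Where the calls were lost, the log2 fold changes were 0.20 to 0.23 for Psap, 0.22 to 0.30 for Gm2a and 0.21 to 0.28 for Fuca1. They were 0.33 to 0.43 for Ctsf and 0.40 to 0.55 for Gusb. No gene of the list was called without WT replicate 2, WT replicate 3, Kpna6 -/- replicate 1 or Kpna6 -/- replicate 2, 1 gene (Psap) was called without Kpna6 -/- replicate 3, and 11 were called without WT replicate 1. By DESeq2 8 genes were called, and by limma on TPM values 0. Fuca1 (chr4:135920735-135940311) was at 88.8, 81.8 and 81.5 CPM in WT, at 107, 109 and 101 CPM in Kpna6 ΔIBB/ΔIBB and at 106, 98.7 and 95.6 CPM in Kpna6 -/- testes. Both lines lay above WT and overlapped with each other. Fuca1 lies 6.25 Mb and Ppt1 6.79 Mb from Kpna6 on chromosome 4.

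The lines were also compared with each other. In Kpna6 ΔIBB/ΔIBB, 27 of 43 genes (62.8%) were higher than in Kpna6 -/- testes and 1 was lower (Galc), against 13.5% of 18752 genes called higher and 16.8% called lower, and the values did not overlap with Kpna6 ΔIBB/ΔIBB above for 30 genes (69.8%), against 21.8% of all genes tested. The median log2 fold change was 0.33 for the list and 0.0049 for all genes. The highest values were those of Ctsa at 0.64 ± 0.175, Lgmn at 0.60 ± 0.0700 and Lipa at 0.55 ± 0.0840. For Ctsa 1 testis was low, Kpna6 -/- replicate 2, at 7.95 CPM against 13.9 and 14.2 CPM in the other 2. In TPM this testis was at 9.66 against 11.2 and 10.7. Ctsa was still called without it, and was not called without Kpna6 ΔIBB/ΔIBB replicate 1 or 2 (0.59 and 0.61). Smpd1 was lost without Kpna6 ΔIBB/ΔIBB replicate 1 or 2 or any 1 of the Kpna6 -/- testes (0.28 to 0.37), and Arsb without Kpna6 ΔIBB/ΔIBB replicate 2 or 3 or any 1 of the Kpna6 -/- testes (0.20 to 0.25). Npc1 was lost without Kpna6 ΔIBB/ΔIBB replicate 1 or 2 or Kpna6 -/- replicate 2 or 3 (0.23 to 0.29), and Gusb without Kpna6 ΔIBB/ΔIBB replicate 1 or Kpna6 -/- replicate 2 (0.24 and 0.26). Idua, the α-iduronidase, was called here (0.41 ± 0.0988, adjusted p = 0.0084) and in neither comparison with WT, and Fuca1, Ids, Mcoln1 and Ppt1 were called higher in Kpna6 ΔIBB/ΔIBB against WT and not against Kpna6 -/-. The mean of the Kpna6 -/- testes lay between the means of the other groups for 31 of 43 genes, and the Kpna6 ΔIBB/ΔIBB mean was the highest for 40. The same counts over all genes are not given here, so these are a description of the list only. Both comparisons with WT share the same 3 control testes.

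WT replicate 1 was the highest of the 3 WT testes for 33 of the 43 genes, against 35.9% of all genes tested, and WT replicate 2 the lowest for 30, against 32.3%. Within Kpna6 ΔIBB/ΔIBB, replicate 1 was the highest for 25 of the 43 genes, against 37.2% of all genes tested. Replicate 3 was the lowest for 24 of the 43, also against 37.2%. In each case the part of the list was larger than that of all genes. These are counts with no test. The rise was of similar size in abundant and rare genes. Of 24 genes at 10 TPM or more in WT 17 rose and 1 fell, with a median of 0.36, and of 19 genes below 10 TPM 13 rose, with a median of 0.41.

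Other genes of the pathway were taken from lists of named genes. Of all genes tested in Kpna6 ΔIBB/ΔIBB against WT, 17.7% were called higher and 18.9% lower. Of 28 further lysosomal hydrolases, 14 rose in Kpna6 ΔIBB/ΔIBB against WT and 4 fell, with a median of 0.30. The acid phosphatase Acp5 fell (-0.71 ± 0.16). Of 25 further membrane proteins and transporters, 14 rose and 4 fell, with a median of 0.25, and Cd68 (0.61 ± 0.20) and the acetyltransferase Hgsnat (0.60 ± 0.11) moved most. Of the subunits of the V-ATPase, the proton pump that acidifies the lysosome, 24 of 25 were tested, 9 rose and 4 fell, with a median of 0.13. The isoforms Atp6v0a4 (-1.54 ± 0.46, below 1 CPM in all testes) and Atp6v1b1 (-0.65 ± 0.13) moved most, both downwards.

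For the sorting of enzymes by mannose 6-phosphate, 3 of 9 genes rose and 0 fell, with a median of 0.07. They included Nagpa (0.39 ± 0.11) and Gnptg (0.32 ± 0.10), both of which make the tag. Among 18 genes of the Tfeb relatives and of nutrient sensing at the lysosome, 6 rose and 3 fell, with a median of 0.13, led by Rragb (0.60 ± 0.09) and Lamtor3 (0.55 ± 0.09). Among 18 autophagy genes 4 rose and 1 fell, with a median of 0.07, led by Map1lc3b and Sqstm1 (0.35 ± 0.04 and 0.34 ± 0.06). The part of them called higher was near that of all genes tested (17.7%). So was the part of the nutrient sensing genes called lower (18.9% of all genes). Of 9 genes of the cystatin family 8 were tested, 3 rose and 2 fell. Cst12 (0.96 ± 0.09) and Cst9 (0.80 ± 0.07) rose most and were also called in Kpna6 -/- (0.42 and 0.61). Of 13 genes for acrosome contents 12 fell and 0 rose, with a median of -0.48, led by the hyaluronidases Spam1 (-0.70 ± 0.12) and Hyal5 (-0.70 ± 0.07). With scaling by library size only, which puts the median of all genes at 0.11, 8 of these 13 were called lower and 11 of 18 autophagy genes, 10 of 18 genes of nutrient sensing and 5 of 9 sorting genes higher. With length-scaled TPM counts 8 of the 25 further membrane proteins and 2 of 18 autophagy genes were called higher. The shares of all genes called with these other scalings are not given here. These counts therefore cannot be set against all genes and show only that the calls depend on scaling. Against Kpna6 -/-, the further hydrolases had 8 genes higher and 3 lower in Kpna6 ΔIBB/ΔIBB, the further membrane proteins 9 and 4, and the acrosome list 11 lower. Of all genes tested there, 13.5% were called higher and 16.8% lower.

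Marker genes of testis cell types also moved in Kpna6 ΔIBB/ΔIBB against WT, where 17.7% of all genes tested were called higher and 18.9% lower. In whole testes, fewer cells of a type and less RNA per cell cannot be told apart. CPM values are also relative to all other RNA of the testis. A higher value therefore cannot be told apart from a lower amount of RNA from other cells. All 12 Sertoli cell markers rose in Kpna6 ΔIBB/ΔIBB (median 0.59, led by Fshr at 1.35 ± 0.17 and Trf at 0.92 ± 0.18), and 3 of 12 in Kpna6 -/-. Their summed level was 1215 to 1314 CPM in WT, 1784 to 2109 CPM in Kpna6 ΔIBB/ΔIBB and 1454 to 1540 CPM in Kpna6 -/- testes, the same order of groups without overlap as for the lysosomal list. The study counted fewer Sertoli cells per tubule in adults of both lines. It also counted fewer leptotene/zygotene spermatocytes and round spermatids in both lines, with a further loss of pachytene spermatocytes in Kpna6 ΔIBB/ΔIBB only. Its quantitative PCR of whole testes, normalised to Gapdh, showed no significant change of Rhox5, Wt1, clusterin (Clu), Gata1 and Cldn11, which are among these markers. Of 6 markers of peritubular myoid cells 5 rose (Myl9 0.85 ± 0.06, Acta2 0.64 ± 0.06), with sums of 132 to 141 CPM in WT, 195 to 207 CPM in Kpna6 ΔIBB/ΔIBB and 140 to 146 CPM in Kpna6 -/- testes. Of 12 macrophage markers 4 rose (Mpeg1 0.80 ± 0.13 and Mrc1 0.53 ± 0.08 the most) and Aif1 fell. With scaling by library size only 8 were called higher, with no share of all genes to set beside this count. With all 12 markers the sums were 387 to 413 CPM in WT, 358 to 385 CPM in Kpna6 ΔIBB/ΔIBB and 412 to 427 CPM in Kpna6 -/- testes. Aif1 held most of these reads, and without it the sums were 106 to 136, 149 to 173 and 120 to 142 CPM in the same order. Of 8 Leydig cell markers 2 rose (Lhcgr 0.91 ± 0.26 and Hsd3b1 0.37 ± 0.11, neither by DESeq2), and their sums overlapped between groups, at 796 to 1357, 893 to 1166 and 1083 to 1199 CPM, with WT replicate 1 at the upper and WT replicate 2 at the lower end.

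Spermatid markers fell in Kpna6 ΔIBB/ΔIBB, where 18.9% of all genes tested were called lower and 17.7% higher than in WT. All 9 markers of round spermatids (Catsper3 -0.72 ± 0.10, Izumo1 -0.61 ± 0.07) and all 10 of elongating spermatids (Tnp1 -0.59 ± 0.07, Smcp -0.48 ± 0.04) were lower, while the sums of both lists in Kpna6 -/- overlapped with WT. The sums for round spermatids were 2123 to 2239, 1710 to 1866 and 2070 to 2156 CPM, and those for elongating spermatids 18369 to 20480, 14097 to 15813 and 20263 to 20869 CPM. Of 8 pachytene spermatocyte markers 1 fell (Mlh3 -0.17 ± 0.06), and of 7 endothelial markers 2 fell (Vwf -0.49 ± 0.06 and Egfl7 -0.42 ± 0.13). Of 9 spermatogonial markers tested 1 rose (Uchl1 0.38 ± 0.06) and 1 fell (Gfra1 -0.50 ± 0.11). With library size only 4 of these 9 were called higher, again with no share of all genes beside this count. The median changed sign with scaling by library size only for the pachytene list (-0.07 and 0.03) and for the endothelial list (-0.01 and 0.09). The epididymal genes Crisp1 and Spink8 were called higher, with most of their reads in Kpna6 ΔIBB/ΔIBB replicate 3 (67.7 and 24.4 CPM). Besides Lcn5, no gene of the lists was at 0 in all 9 testes. The part of these cell types in the higher level of the lysosomal genes was not tested.

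**Figure D5:**
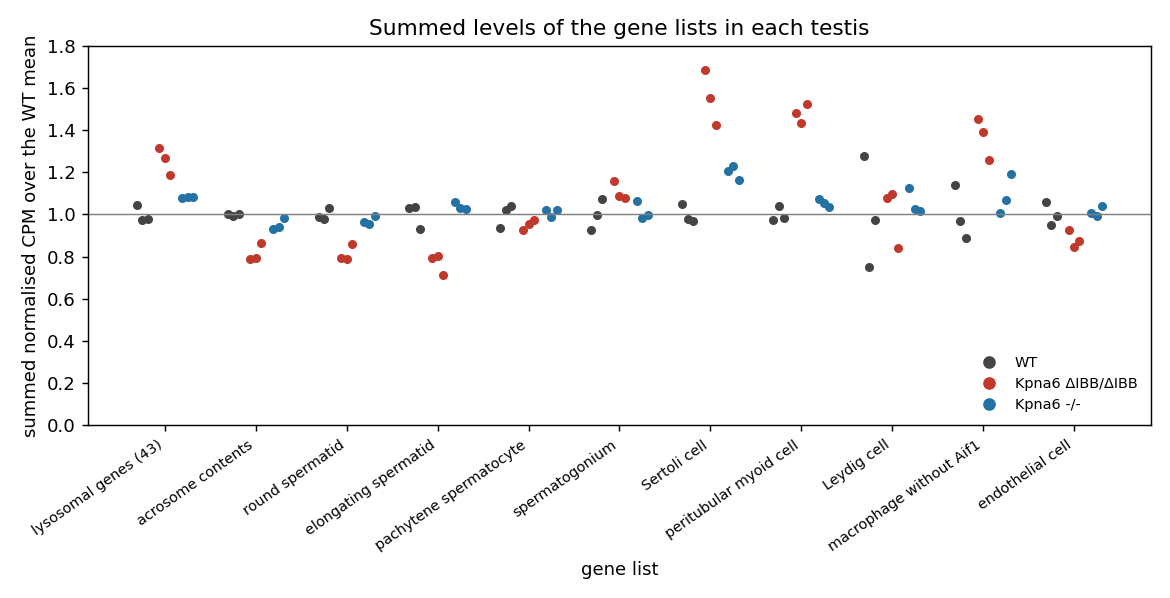
Summed normalised CPM of the 43 lysosomal genes and of 10 other gene lists in each testis, divided by the WT mean of that list, by Kpna6 genotype. The lysosomal, Sertoli cell, peritubular myoid cell and macrophage (without Aif1) sums of all 3 Kpna6 ΔIBB/ΔIBB testes lie above all WT values, and the acrosome and spermatid sums below.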

How the data were processed

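Whole-testis RNAseq was analysed for 9 samples, 3 labelled WT, 3 Kpna6 ΔIBB/ΔIBB and 3 Kpna6 -/-. The authors assigned reads to mm10 transcripts with kallisto (0.45 in the submitters' processing notes) and deposited estimated counts, not normalised, and TPM values, scaled within a library, for 96626 transcripts. Both were summed over the 32035 genes of GENCODE M21 (GRCm38), and counts were rounded. Libraries do not keep strand, so reads of overlapping genes on opposite strands cannot be told apart. Pairs of groups were tested on 6 testes in edgeR 4.0.16 (R 4.3.3), by its quasi-likelihood test after filterByExpr and TMM scaling, with Benjamini-Hochberg adjustment over all genes tested. All 43 genes passed the filter. Where values per testis are given, they are CPM on 1 TMM scale over the 9 testes. Labels number the replicates but do not say that each is a separate animal, so p-values measure the spread between these samples. Genes with full values are the 5 largest rises and falls in Kpna6 ΔIBB/ΔIBB, those called in Kpna6 -/-, the 5 most abundant in WT and Kpna6, and of each other list the 2 largest changes, of which 1 is not reported here. The macrophage sum without Aif1, the Cd63 transcripts and the stretches of promoters shown were chosen after their values were seen. Members and lists were chosen with earlier results of these data known. On data simulated for the comparison of Kpna6 ΔIBB/ΔIBB with WT testes, with 200 changed genes among 18560, 198 were recovered and 13 others called. Recovery of rises as small as those of the lysosomal genes was not tested. Alternatives were DESeq2 1.42.0, limma 3.58.1 on log2(TPM + 1) and log2(TPM + 0.1), other filters and scalings, coding transcripts only, a replicate block, all 9 testes in 1 fit, each testis left out, and near-identical genes added (blastn 2.17.0+, at least 95% identity over 100 bases, or 250 bases, the latter chosen after seeing the data).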

Additional observations from a re-analysis of the deposited data

How the results depend on the processing

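The 18 alternatives left the number of lysosomal genes called in Kpna6 ΔIBB/ΔIBB against WT between 25 and 34 and against Kpna6 -/- between 23 and 34, where the main values were 31 and 28. A set of 18 genes was called against WT in the same direction in every alternative. In Kpna6 -/- against WT, where 5 genes were called, the number was 8 by DESeq2, 2 with all 9 testes in 1 fit, 0 with length-scaled TPM counts and 0 with limma on log2(TPM + 1) or log2(TPM + 0.1), and it ranged from 0 to 11 with each testis left out. No gene was called in all alternatives there. The median log2 fold change in Kpna6 ΔIBB/ΔIBB against WT (0.39) was 0.48 with library size only, 0.49 with log2(TPM + 1), 0.53 with log2(TPM + 0.1) and 0.29 with near-identical sequences added, and 0.31 to 0.48 with a testis left out. Against Kpna6 -/- (0.33) it was 0.43, 0.37, 0.43 and 0.25 in the same order, and 0.27 to 0.38 with a testis left out. In Kpna6 -/- against WT (0.14) it was 0.041 with near-identical sequences added, and 0.067 to 0.18 with a testis left out. Library size only and the TPM scales also put the median of all genes at 0.10 to 0.14 in the 2 comparisons of Kpna6 ΔIBB/ΔIBB.

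Adding genes with near-identical sequence of at least 100 bases turned the sign of 5 genes in Kpna6 ΔIBB/ΔIBB against WT (Man2b1 -0.030, Lamp2 -0.15, Ctsb -0.031, Npc1 -0.042 and Cd63 -0.090) and against Kpna6 -/- (Man2b1 -0.045, Lamp2 -0.11, Ctsb -0.048, Npc1 -0.054 and Cd63 -0.088). With matches of at least 250 bases Ctsb turned (-0.027 and -0.048) and the other 4 did not. All counts of each matching gene were added, not only those of the shared stretch. For each of these genes, an added gene alone had more counts than the gene itself. Sec14l1, for example, had a mean of 9045 counts against 873 for Cd63 and 427 for Npc1. The turned signs thus describe mostly the added genes. They cannot show whether the changes of the listed genes depend on shared sequence. Lamp1 turned in Kpna6 ΔIBB/ΔIBB against Kpna6 -/- on log2(TPM + 1) (0.10) and log2(TPM + 0.1) (0.11). Replicate numbers did not pair the testes, as correlations of same-numbered testes ranged from -0.046 to 0.11, and with a replicate block 30, 5 and 28 genes were called in the 3 comparisons. Low counts limit the precision for Ctsk, Ctss and Gla.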
